A study of Homo sapiens with 15 samples.

Results

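The 10 genes described here encode the insulin-like growth factor (IGF) binding proteins IGFBP2 to IGFBP7, the pappalysins PAPPA and PAPPA2, and the receptors IGF1R and IGF2R. They were picked by gene name from the 58219 genes of the count table, and the family was chosen by one measured value, the rise of PAPPA2 after the high dose of fine particulate matter (PM2.5). The values of PAPPA2 in 24-h libraries are therefore given as a description with no test, whereas the other 9 genes came in by name and were tested. RNA had been sequenced from BEAS-2B cells, an immortalized line of human bronchial epithelial cells grown in serum-free medium on collagen-coated plates. There were 15 libraries in 5 groups of 3 independent experiments, all from this single line. For 24 h, cells received vehicle alone (control), 1 µg/cm2 or 30 µg/cm2 of PM2.5 collected in Beijing. In a second protocol, seeded at lower density, PM2.5 at 1 µg/cm2, or vehicle, was renewed each day and cells were collected on day 7, after 6 daily exposures by the methods and 7 by the sample labels.

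IGF1 and IGF2 act mainly through IGF1R, a receptor tyrosine kinase, whereas IGF2R binds IGF2 and takes it to lysosomes. Secreted binding proteins hold the ligands away from IGF1R, and the pappalysins are secreted metalloproteases that cut some of them and so release the ligand, PAPPA mainly IGFBP4 and IGFBP5, and PAPPA2 mainly IGFBP3 and IGFBP5. The stanniocalcins STC1 and STC2 bind and inhibit the pappalysins.

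PAPPA2 is the gene on which the choice of the family rests, so the start of its transcript is shown whole. The gene lies on chromosome 1 of GRCh38 (176463171 to 176845605, plus strand, by the deposited coordinates), and the RefSeq window around its start (GRCh38.p14, chr1:176462925-176463224, plus strand) is printed with the transcribed bases in capitals. PAPPA (chr9:116153741-116153800, plus strand) and IGFBP4 (chr17:40443400-40443459, plus strand), a protease and its substrate, are the members whose windows hold TATAAA, and for each the 50 bases before the start and the first 10 transcribed bases are printed, with these letters in capitals.

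PAPPA2: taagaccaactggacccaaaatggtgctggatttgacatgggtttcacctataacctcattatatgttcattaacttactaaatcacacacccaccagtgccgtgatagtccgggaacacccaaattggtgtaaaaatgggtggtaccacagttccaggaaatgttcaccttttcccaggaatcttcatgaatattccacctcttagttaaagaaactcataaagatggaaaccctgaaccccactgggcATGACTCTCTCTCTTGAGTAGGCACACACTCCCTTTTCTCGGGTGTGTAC

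PAPPA: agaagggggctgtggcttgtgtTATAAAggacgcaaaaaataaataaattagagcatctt

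IGFBP4: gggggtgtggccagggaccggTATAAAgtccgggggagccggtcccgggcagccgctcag

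The RefSeq table held windows of 250 bases before and 50 after a start for 9 of the 10 genes, and none for IGFBP7. TATAAA stood at -28 in PAPPA and at -29 in IGFBP4 and is found, on either strand, in 11.5% of all 35116 windows. The PAPPA2 window had a GC content of 44% and held none of the 3 motifs that were searched for on both strands. The second of these, GCGTG, the core of the element that the aryl hydrocarbon receptor binds, is found in 36.5% of all windows, and among the 10 genes it was found in windows of IGFBP2, IGFBP3 and IGF1R. The third, TGANTCA (an AP-1 site, N being C or G), is found in 4.95% of all windows and in none of these genes. A match describes letters and is not a measured site.

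Libraries held 21460981 to 34724765 counted reads, so that 3 counts equal 0.0864 to 0.140 CPM (counts per 1000000 counted reads). The 24-h libraries of experiment 2 stood apart. Between libraries of one 24-h group, the chi-square of the counts per degree of freedom was 68.6 to 161 in pairs with experiment 2 and 4.11 to 16.4 between experiments 1 and 3, so tests are given with and without experiment 2. The daily-treated 7-day library of experiment 3 also differed from its replicates, at 23.1 and 17.9. Other pairs within a 7-day group had 4.04 to 4.74. This library was left out only where single libraries were left out in turn. Libraries of one replicate number are one experimental batch by the series record, so tests are also given with that number as a replicate block where the block changes a call. The 8 epithelial markers (KRT5, KRT14, KRT17, TP63, EPCAM, CDH1, KRT8 and KRT18) had at least 10 counts in every library. The endothelial markers PECAM1, VWF and CDH5 and the leukocyte markers PTPRC and CD3E had at most 10, whereas the third leukocyte marker, CD14, had 62 to 515 counts. The 7 fibroblast markers, VIM and COL1A1 among them, were also detected, with 9 to 27 counts of LUM as the lowest.

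All 10 genes passed the filter on low counts. PAPPA2, with 0 to 5 counts in the 24-h control and low-dose libraries, passed through the other 3 groups. Per length, over the 15 libraries, the highest mean level among the binding proteins was 118 CPM per kb of exon in IGFBP4. Next came IGFBP7 with 34.8, IGFBP2 with 23.7 and IGFBP6 with 21.7 CPM per kb, while IGFBP3 had 7.02 and IGFBP5 0.648 CPM per kb. The receptors had 23.5 CPM per kb in IGF2R and 6.12 in IGF1R, and the pappalysins 0.688 in PAPPA and 0.0680 in PAPPA2. The ligands were scarcely detected, with 0 to 2 counts of IGF1 and 12 to 79 of IGF2 in a library, and IGFBP1, the other classical binding protein, had 0 to 25.

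**Figure D1:**
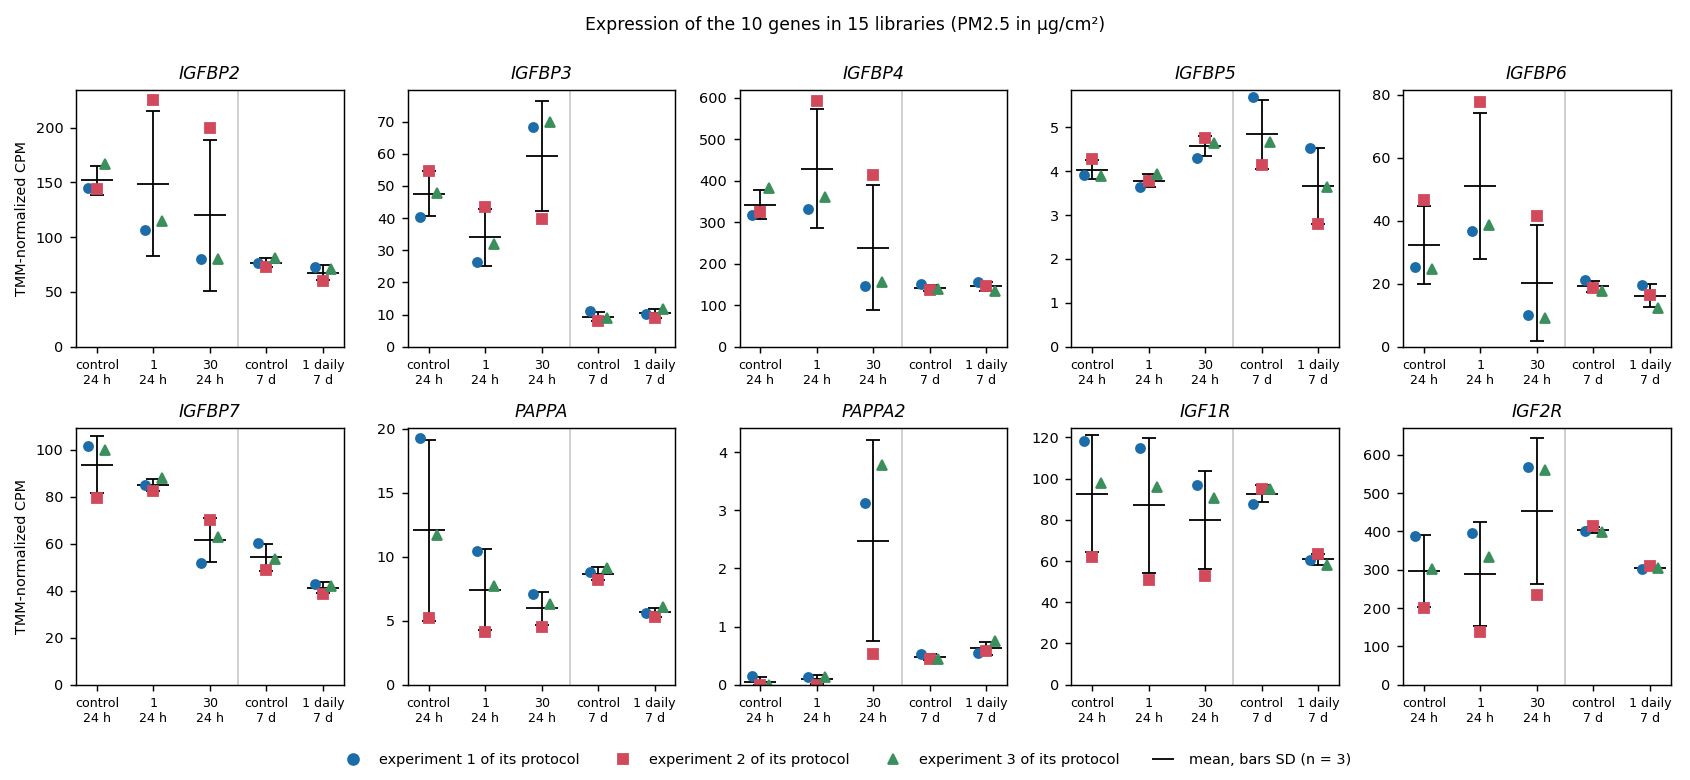
TMM-normalized CPM (vertical axes, each from 0) of the 10 genes in the 5 groups (horizontal axes), with one symbol per library, coloured by experiment number within its protocol, and the mean with SD (n = 3; whiskers end at the axis). PAPPA2 stood at 3.12, 0.520 and 3.78 CPM after 30 µg/cm2, and in IGFBP2, IGFBP4 and IGFBP6 the library of experiment 2 lay above the others after either 24-h dose.

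PAPPA2 was at 0 to 5 counts in untreated cells at 24 h and was found in every library after 30 µg/cm2. Controls of 24 h held 5, 0 and 0 counts in experiments 1, 2 and 3, cells given 1 µg/cm2 held 4, 0 and 4, and cells given 30 µg/cm2 held 95, 15 and 79. The library of experiment 2 was thus the lowest of the high dose, although it lay above all 6 libraries of the other 24-h groups. Pooled over the libraries of a group, the level was 0.0573 CPM in 24-h controls (95% exact Poisson interval 0.0186 to 0.134, counting error only) and 2.24 CPM after 30 µg/cm2 (1.93 to 2.58). The pooled ratio of 30 µg/cm2 to control was 39.0 (95% interval for counting error 16.4 to 121), and against 1 µg/cm2 it was 22.3 (11.1 to 52.4). Both intervals pool the libraries of a group and leave out the spread between experiments. They are no test, since the family was picked on this rise. The fitted log2 fold-change of 5.29 was the rank 5 rise of the 673 genes called higher, a rank that restates this choice. With single libraries left out, the log2 fold-change ranged from 4.73 to 9.12. Within experiments 1, 2 and 3, the ratio of CPM + 0.5 to the control was 5.57, 2.04 and 8.57.

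In the 7-day protocol PAPPA2 was detected without PM2.5. The 7-day controls held 14 counts in each library (0.532, 0.450 and 0.439 CPM), which is 8.59 times the pooled level of the 24-h controls (counting interval 3.41 to 27.8). After daily 1 µg/cm2 there were 17, 20 and 24 counts (0.551, 0.578 and 0.749 CPM). All 3 treated libraries lay above the 3 controls, by a log2 fold-change of 0.40 (SE 0.71), and this was not called (adjusted p = 0.869, edgeR quasi-likelihood test). The pooled ratio was 1.38 with an interval of 0.915 to 2.09. In order of level, then, 24-h control and 1 µg/cm2 were lowest (pooled ratio of the latter to the former 1.75, counting interval 0.505 to 6.80). The 7-day groups followed, and the 30 µg/cm2 group was highest in mean, but its library of experiment 2, at 0.520 CPM, lay within the range of the 7-day libraries.

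PAPPA was lower than its control in each 24-h experiment at the high dose. The 24-h controls stood at 19.3, 5.18 and 11.7 CPM, cells given 1 µg/cm2 at 10.4, 4.11 and 7.73, and cells given 30 µg/cm2 at 7.07, 4.51 and 6.32. The groups overlapped because the control of experiment 2 was low, but within each experiment the high-dose library was below its control, at 0.382, 0.882 and 0.560 of it. The log2 fold-change of PAPPA was -1.02 (SE 0.387) and was not called in the fit without a block (adjusted p = 0.120, edgeR quasi-likelihood test). Blocking on experiment gave -0.89 (SE 0.181), which was called (adjusted p = 0.00273). Summed over a group, 1081 reads of PAPPA stood beside 5 of PAPPA2 in 24-h controls and 477 beside 189 after 30 µg/cm2, from exons of 11573 and 10930 bases. The ratio of reads was thus 216 (95% exact interval for counting error 92.4 to 667) in controls and 2.52 (2.13 to 3.003) after 30 µg/cm2. These intervals pool the libraries of a group and leave out the spread between experiments. They are no test, since the family was picked on PAPPA2. The 5 control reads of PAPPA2 all came from experiment 1, and its high-dose libraries held 15 to 95.

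With 30 µg/cm2, the binding protein mRNAs did not move together. Of the 10 genes, 2 were called without a block (adjusted p under 0.05, log2 fold-change 0.6 or more in size), against 8.07% of all 17599 tested genes, and 1 of the 2 was PAPPA2 itself, which is included in such counts throughout but not read as a test where 24-h libraries enter. The other was IGFBP7, a secreted protein that binds IGFs weakly. It stood at 101, 79.6 and 99.9 CPM in controls and at 51.7, 70.1 and 62.9 CPM after 30 µg/cm2, and the groups did not overlap. Its log2 fold-change was -0.61 (SE 0.135, adjusted p = 0.0114, edgeR quasi-likelihood test), close to the limit of 0.6, and the call was lost without control 1 (-0.56), control 3 (-0.57) or high-dose library 1 (-0.51). In the fit of the compared libraries alone, the adjusted p was 0.122. IGFBP7 shares 270 exon bases with POLR2B on the other strand, and the strand used in counting is not stated.

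With the replicate block, 5 of the 10 genes were called at 30 µg/cm2, against 15.2% of all genes. PAPPA2 was again higher, and IGFBP4 (-0.70, SE 0.224, adjusted p = 0.0324), IGFBP6 (-0.91, SE 0.207, adjusted p = 0.00554), IGFBP7 and PAPPA were lower by edgeR's quasi-likelihood test. IGFBP4, the main substrate of PAPPA, stood at 318, 325 and 382 CPM in controls and at 146, 412 and 156 CPM after 30 µg/cm2. Experiments 1 and 3 thus stood at 0.460 and 0.409 of their controls, whereas experiment 2 stood at 1.27 times its control. IGFBP6, which prefers IGF2 to IGF1, went from 25.4, 46.6 and 24.7 CPM to 10.1, 41.5 and 9.10 CPM, at 0.410, 0.892 and 0.380 of the controls. Its control of experiment 2 was the highest of the 3, so the groups overlapped although the ratio was below 1 in each experiment.

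Without the 24-h libraries of experiment 2, 8 of the 10 genes were called at 30 µg/cm2, against 19.1% of all genes. Experiment 2 was left out after its libraries were seen to stand apart. Each 24-h group in this fit held 2 libraries, and the spread was shared with the libraries of the other protocol. The p-values of this fit therefore leave out the spread that experiment 2 adds. By edgeR's quasi-likelihood test, IGFBP2 (-0.98, adjusted p = 1.33e-06), IGFBP4 (-1.23), IGFBP6 (-1.39), IGFBP7 (-0.83) and PAPPA (-1.22) were lower, and PAPPA2, IGFBP3 (0.64, adjusted p = 0.00142) and IGF2R (0.69) were higher. In these 2 experiments IGFBP2, a binding protein common in epithelia, went from 145 and 167 CPM to 79.9 and 80.1 CPM, and in experiment 2 it went from 144 to 199 CPM. IGFBP3, the carrier of most IGF in blood and a PAPPA2 substrate, went from 40.4 and 47.8 CPM to 68.4 and 69.9 CPM, and in experiment 2 from 54.5 to 39.6 CPM. For IGFBP2, IGFBP3 and IGFBP4, experiment 2 therefore moved against the others. Their log2 fold-changes over all 3 experiments (-0.34, 0.32 and -0.52) were not called without a block, and only that of IGFBP4 was called with it. Why experiment 2 differs was not tested.

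**Figure D2:**
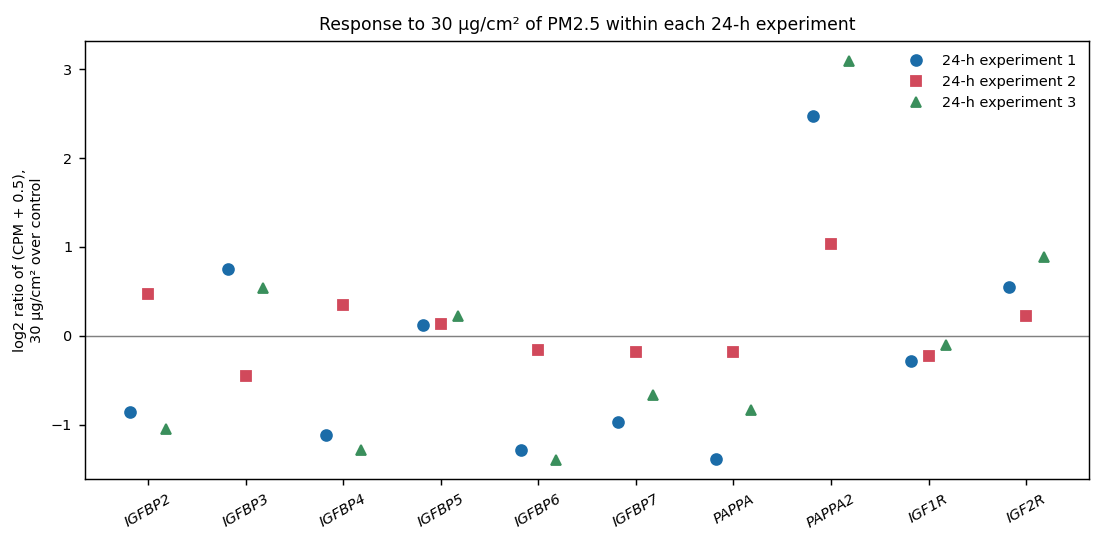
Log2 ratio of CPM + 0.5 after 30 µg/cm2 of PM2.5 to the control of the same experiment (vertical axis) for the 10 genes, with one symbol per 24-h experiment. IGFBP2, IGFBP3 and IGFBP4 had opposite signs in experiment 2, while the other genes kept one sign in all 3. In PAPPA2, IGFBP6, IGFBP7, PAPPA and IGF2R the change was smallest in size in experiment 2.

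IGFBP5, the substrate that both pappalysins share, was at 2.80 to 5.70 CPM over all libraries. Its levels were 3.91, 4.29 and 3.90 CPM in 24-h controls and 4.31, 4.75 and 4.65 CPM after 30 µg/cm2. The high-dose libraries all lay above the controls, by a log2 fold-change of 0.18 (SE 0.191) that was not called. IGFBP5, IGFBP7 and PAPPA2 were the genes whose high-dose libraries all lay on one side of the controls, which 22.8% of all tested genes also showed. Among the receptors, IGF2R stood at 389, 201 and 301 CPM in controls and 568, 234 and 559 CPM after 30 µg/cm2, 1.46, 1.17 and 1.85 times the controls. Its log2 fold-change of 0.61 (SE 0.367) had an adjusted p of 0.350 by edgeR's quasi-likelihood test. Blocking on experiment gave 0.55 (adjusted p = 0.00571), under the fold limit. IGF1R stood at 118, 62.0 and 97.6 CPM in controls and 96.7, 52.9 and 90.6 CPM after 30 µg/cm2, and was not called in any fit of this comparison.

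Per length, IGFBP4 had the largest mean share of the mRNA of the 6 binding proteins in each group. Its mean share was 57.1% (SD 2.39, n = 3) in 24-h controls and 53.4% (SD 6.56) after 30 µg/cm2, where it was 49.8% and 49.5% in experiments 1 and 3 and 61.0% in experiment 2. The share of IGFBP3 was 3.44% to 4.45% in controls and, after 30 µg/cm2, 2.82% in experiment 2 and up to 11.2% in the others. The 6 genes summed to 272 ± 17.3 CPM per kb (SD, n = 3) in 24-h controls and 195 ± 97.7 after 30 µg/cm2, where the lowest library had 134 and the highest, of experiment 2, had 308. These are sums over a culture, in which fewer cells expressing a gene and less RNA per cell cannot be told apart. The summed level of the 8 epithelial markers was also lower after 30 µg/cm2, at 967 to 1383 CPM against 1984 to 2496 in controls. Of that list, KRT5, CDH1 and KRT8 were called lower. The 7 fibroblast markers summed to 345 to 568 against 477 to 747 CPM, mostly VIM (358 against 532 CPM on average), and none of them was called. Their log2 fold-changes ranged from -0.57 in VIM to 0.49 in COL3A1. The part of these markers in these values was not tested.

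**Figure D3:**
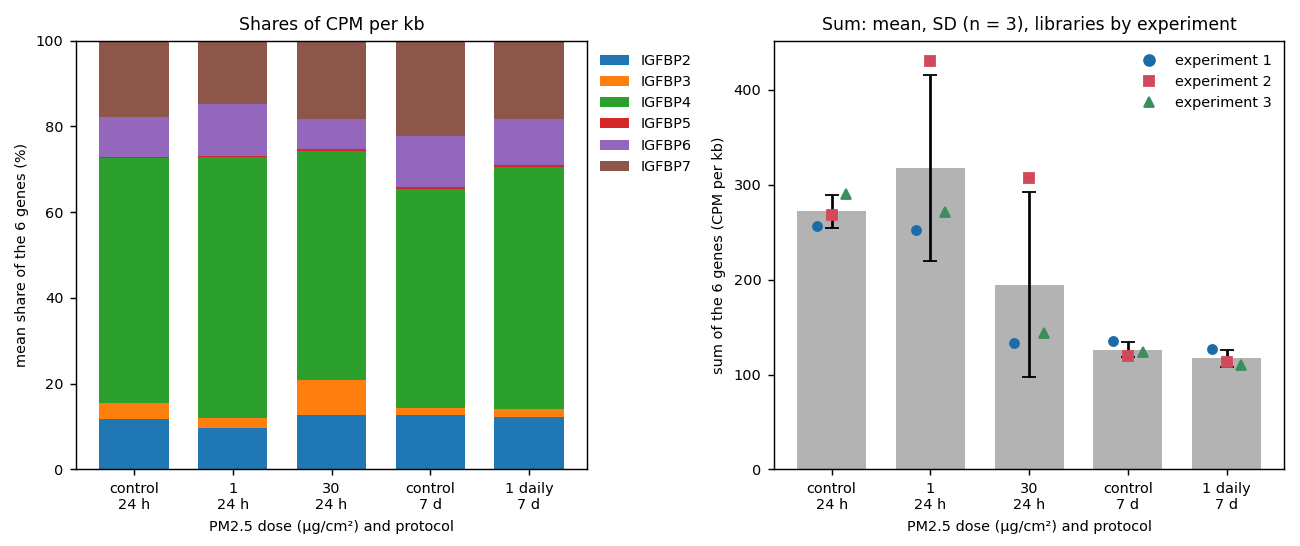
Left, mean share (%) of each binding protein in the summed CPM per kb of IGFBP2 to IGFBP7 in the 5 groups. Right, that sum (CPM per kb, bars mean, whiskers SD, n = 3, symbols libraries by experiment), which was 126 in 7-day controls and 272 in 24-h controls.

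At 1 µg/cm2 for 24 h, none of the 10 genes was called, with or without the replicate block, against 0.0625% and 0.42% of all genes, which is 11 and 74 genes (534 and 1538 at an unadjusted p under 0.05). The largest fitted values among the 9 tested by name were those of IGFBP6 (0.66, SE 0.488), PAPPA (-0.70, SE 0.383) and IGFBP3 (-0.49, SE 0.229). IGFBP6 stood at 36.8, 77.7 and 38.8 CPM, which is 1.44, 1.66 and 1.56 times the controls of the same experiments. PAPPA stood at 0.553, 0.812 and 0.675 of its controls. Without experiment 2, IGFBP6 (0.60, adjusted p = 0.0276) and PAPPA (-0.77, adjusted p = 0.0266) were called by edgeR's quasi-likelihood test, 2 of the 10 genes against 2.11% of all. With all libraries, DESeq2 called none of the 10 genes.

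The direct comparison of 30 with 1 µg/cm2 called 2 of the 10 genes, against 7.84% of all, and both, IGFBP3 and PAPPA2, were higher at the high dose. IGFBP3 stood at 26.4, 43.6 and 31.9 CPM at the low dose and 68.4, 39.6 and 69.9 at the high dose, so that experiment 2 again had the opposite order. Its log2 fold-change was 0.80 (SE 0.230, adjusted p = 0.0400, edgeR quasi-likelihood test). The call was lost without low-dose library 1 (0.63) or 3 (0.75) or high-dose library 1 (0.67) or 3 (0.67), and in the fit of the compared libraries alone (adjusted p = 0.263). With the block, 5 genes were called (15.6% of all), with IGF2R (0.68) higher and IGFBP4 (-0.93) and IGFBP6 (-1.55) lower, and without experiment 2, 6 were called (17.3% of all). IGFBP6 was thus above its controls at the low dose in each experiment and below them at the high dose. Both doses were set against the same 3 controls, so these comparisons are not independent.

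**Figure D4:**
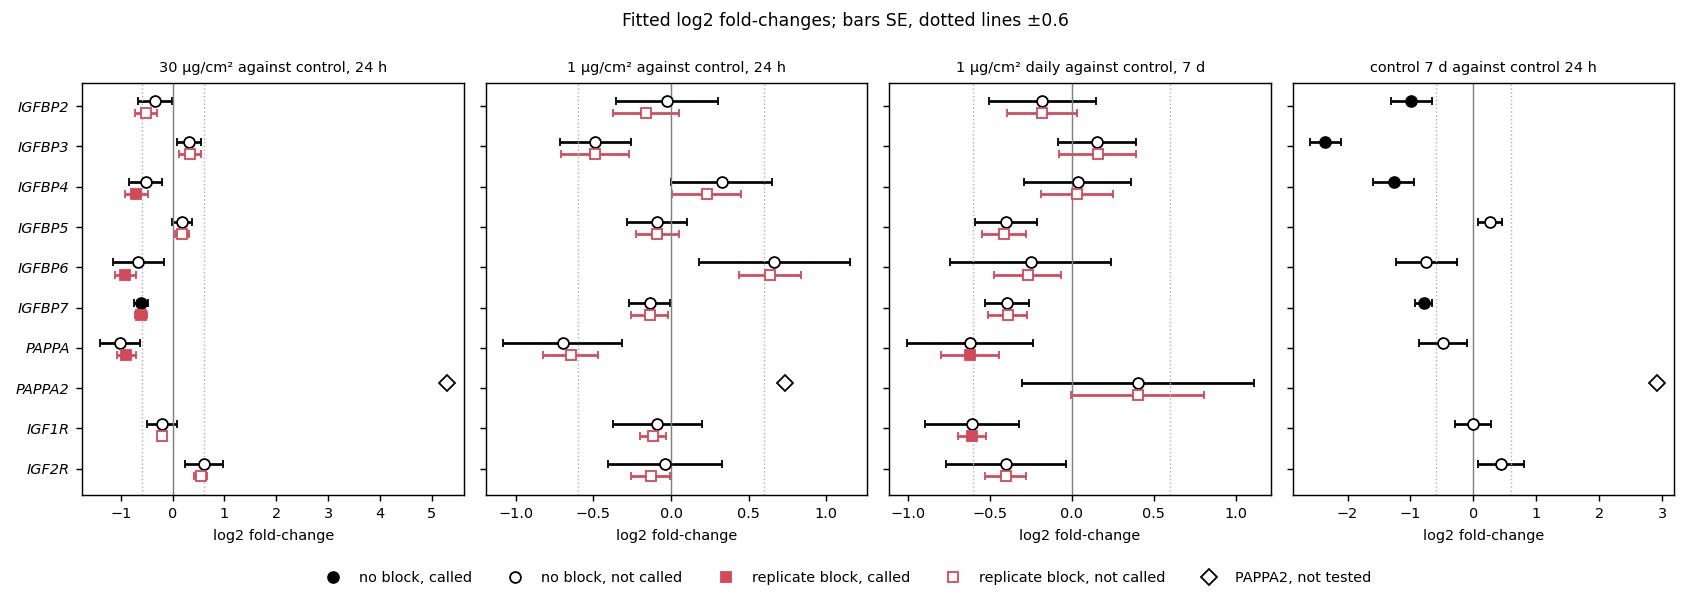
Fitted log2 fold-changes (horizontal axes, bars SE) of the 10 genes in 4 comparisons, without a block (black circles) and with the replicate block (red squares), filled where called, and dotted lines at 0.6 either way. PAPPA2 is drawn as an open diamond with no error where it was not tested. With the block, IGFBP4, IGFBP6, IGFBP7 and PAPPA were called lower at 30 µg/cm2, and PAPPA and IGF1R lower after daily exposure.

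After daily 1 µg/cm2 in the 7-day protocol, PAPPA and both receptors were lower than in their controls in every experiment. PAPPA stood at 8.78, 8.16 and 9.13 CPM in controls and at 5.57, 5.31 and 6.05 CPM after PM2.5. IGF1R stood at 87.8, 94.97 and 95.05 CPM in controls and at 60.6, 63.5 and 58.2 CPM after PM2.5, or 0.691, 0.671 and 0.614 of the control. IGF2R stood at 401, 413 and 399 CPM in controls and at 303, 309 and 305 CPM after PM2.5. In none of the 3 genes did the groups overlap. Without a block, none of the 10 genes was called, against 0.227% of all (40 genes, 2102 at an unadjusted p under 0.05, IGFBP7 among them), and DESeq2 called none of the 10. In that fit the spread is shared with the 24-h libraries. With the replicate block, PAPPA (-0.62, SE 0.177, adjusted p = 0.0393) and IGF1R (-0.61, SE 0.0837, adjusted p = 0.00270) were called lower by edgeR's quasi-likelihood test, 2 of the 10 against 4.39% of all. The same 2 genes were called when only the 7-day libraries were fitted. IGF2R, at -0.40 (SE 0.124), had an adjusted p of 0.0517 with the block, by the same test on all 15 libraries.

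Of the binding proteins in the 7-day protocol, IGFBP7 went from 60.3, 48.7 and 53.4 CPM to 43.0, 38.5 and 42.0 CPM, and the groups did not overlap. With the block its log2 fold-change was -0.39 (adjusted p = 0.0497, edgeR quasi-likelihood test), under the fold limit. IGFBP2 was also lower in all treated libraries, at 59.8 to 72.3 CPM against 73.0 to 80.7, with a log2 fold-change of -0.18 (SE 0.328). IGFBP2, IGFBP7, PAPPA, PAPPA2, IGF1R and IGF2R are 6 of the 10 genes whose groups did not overlap, as in 42.9% of all tested genes. IGFBP4 changed by 0.03 (SE 0.324) and IGFBP3 by 0.15 (SE 0.235), and their libraries overlapped. The epithelial markers summed to 1560 to 1800 CPM after daily PM2.5 and 2186 to 2724 in controls, with KRT5 (-0.93) and TP63 (-0.99) called lower. KRT14 (0.39) and EPCAM (0.11) were higher and CDH1, KRT8, KRT17 and KRT18 lower, none of them called without a block. The fibroblast markers summed to 205 to 285 and 285 to 348 CPM, and none of the 7 was called. The part of these markers in the values of the 10 genes was not tested.

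Whether the response to 1 µg/cm2 differed between the protocols was tested as an interaction. None of the 10 genes was called without a block (0% of all genes, 1245 at an unadjusted p under 0.05, while DESeq2 called 66 genes and the fit with no filter 20) or with the block (1.03% of all). Without experiment 2, 2 were called, against 9.84% of all, and these were IGFBP3 (0.75, SE 0.189, adjusted p = 0.0117) and IGFBP6 (-0.85, SE 0.198, adjusted p = 0.00753) by edgeR's quasi-likelihood test. The values give the 7-day response minus the 24-h response.

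Untreated cells of the 2 protocols differed in several of these genes. The 7-day controls had lower IGFBP2, IGFBP3, IGFBP4 and IGFBP7 than the 24-h controls, and with PAPPA2 these were 5 of the 10 genes called, against 21.9% of all genes (6 of 10 and 31% without experiment 2, with PAPPA added). The change was greatest in IGFBP3, from 47.6 ± 7.08 CPM (SD, n = 3) to 9.32 ± 1.46, or -2.35 in log2 fold-change (SE 0.242, adjusted p = 2.35e-05, edgeR quasi-likelihood test). IGFBP4 went from 342 ± 35.1 to 142 ± 7.28 CPM (-1.27, SE 0.329, adjusted p = 0.0106). IGFBP7 went from 93.6 ± 12.2 to 54.1 ± 5.81 CPM (-0.79, SE 0.136). IGFBP2 went from 152 ± 12.9 to 76.7 ± 3.88 CPM (-0.98, SE 0.331, adjusted p = 0.0386), and its call was lost without any 1 of the 6 libraries, at adjusted p of 0.0529 to 0.111. IGF1R had a mean of 92.6 CPM in both, with an SD of 28.4 in 24-h and 4.15 in 7-day controls. Without experiment 2 its log2 fold-change was -0.24 (adjusted p = 0.0374, edgeR quasi-likelihood test), under the fold limit. With all libraries, IGF1R, IGF2R (0.45, SE 0.366), IGFBP5 (0.26), IGFBP6 (-0.75, SE 0.491) and PAPPA (-0.48, SE 0.381) were not called. The fibroblast markers summed to 285 to 348 CPM in 7-day and 477 to 747 CPM in 24-h controls. Of these 7, VIM was called lower (-1.19), and the other 6 were not called, at -0.11 to 0.32. The epithelial markers summed to 2186 to 2724 and 1984 to 2496 CPM, with EPCAM, CDH1 and TP63 called higher (1.17, 1.36 and 1.21) and KRT18 and KRT8 lower (-1.35 and -0.79). The part of these markers in the values of the 10 genes was not tested. Time in culture, density, daily washing and experiment all differ between the protocols and cannot be told apart. The 24-h controls also enter the 24-h comparisons.

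Of 39 other genes of the IGF pathway, 30 were tested. The inhibitor STC2 rose at 30 µg/cm2 and STC1 was not called. STC2 stood at 216, 236 and 214 CPM in 24-h controls, at 352, 360 and 346 CPM after 1 µg/cm2 and at 778, 491 and 787 CPM after 30 µg/cm2, and the 3 groups did not overlap. Its log2 fold-change at the high dose was 1.63 (SE 0.174, adjusted p = 6.98e-05, edgeR quasi-likelihood test), and at 1 µg/cm2 it was 0.67 (SE 0.170, adjusted p = 0.554), not called. In the 7-day protocol STC2 went from 217 to 239 CPM in controls to 314 to 434 CPM, and was called with the block only (0.63, adjusted p = 0.0239). STC1 stood at 6.80 to 7.87 CPM in 24-h controls and 6.27 to 10.02 CPM after 30 µg/cm2. IGFBP1, with 2, 1 and 11 counts in 24-h controls and 25, 13 and 18 after 30 µg/cm2, was called higher with the block only (2.15, adjusted p = 0.0257).

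Of the 30 tested pathway genes, 2 rose and 5 fell at 30 µg/cm2, against 8.07% of all genes called, with a median log2 fold-change of -0.09 beside 0.03 over all genes. With STC2, GRB10 rose (1.17, SE 0.150, adjusted p = 2.85e-04 by edgeR's quasi-likelihood test), an adaptor that binds IGF1R and the insulin receptor and damps their signal. The genes that fell were IRS1 (-1.47, SE 0.321), the docking protein phosphorylated by IGF1R, PIK3R1 (-0.74) and PIK3R3 (-1.41), regulatory subunits of PI3-kinase, and FOXO1 (-1.12) and FOXO4 (-0.74), transcription factors that the pathway holds out of the nucleus. IRS1 stood at 231, 90.8 and 208 CPM in controls and 72.0, 46.5 and 73.0 CPM after 30 µg/cm2. IRS2, a second docking protein, was not called (0.43, SE 0.217), nor was the insulin receptor INSR, whose log2 fold-change of 0.41 lay under the fold limit. With the block 3 rose and 9 fell, against 15.2% of all genes called, adding IGFBP1 to the former and ADAM9, HTRA1, IGF2 and LRP1 to the latter. HTRA1 and ADAM9 are further proteases that cut binding proteins, and LRP1 is a receptor that binds IGFBP3.

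In the comparison of 30 with 1 µg/cm2, GRB10 and STC2 were higher and FOXO1, FOXO4 and PIK3R3 lower. At 1 µg/cm2, none of the 30 genes was called in either protocol without a block. With the block, STC2 was higher and IGF2 and LRP1 lower after daily exposure. IGF2 stood at 1.63, 0.900 and 2.48 CPM in those controls and at 0.810, 0.635 and 0.562 CPM after PM2.5. Between the untreated protocols, INSR was higher at 7 days (15.4 ± 0.744 to 39.0 ± 0.701 CPM, SD, n = 3; log2 fold-change 1.34), as were FOXO4, GRB14 and LRP1, and IRS1 (-1.65), PIK3R3 (-1.32) and STC1 (-0.91, adjusted p = 0.0491, edgeR quasi-likelihood test) were lower.

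Over the 15 libraries, the tested genes whose levels varied most like those of PAPPA2, by Pearson's r of log2(CPM + 0.5), were TMEM209 (r = 0.97), RHBDD1 and NDRG1 (both 0.96), TNFRSF10B (0.96) and ATP6V0A2 (0.95). In the pathway list they were GRB10 (0.94), STC2 (0.79) and IRS2 (0.71). NDRG1, for example, stood at a mean of 47.5 CPM in 24-h controls, 50.1 after 1 µg/cm2, 267 after 30 µg/cm2, 118 in 7-day controls and 109 after daily 1 µg/cm2, the same order of the 24-h and 7-day groups as PAPPA2 except that its 7-day groups changed places. Among the 10 genes themselves, r was 0.95 between IGFBP2 and IGFBP4, 0.87 between IGFBP4 and IGFBP6, 0.87 between PAPPA and IGF1R and -0.81 between PAPPA2 and IGFBP6. These are descriptions over 15 libraries that share groups and experiments, with experiment 2 among them.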

How the data were processed

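Polyadenylated RNA of 15 BEAS-2B cultures had been sequenced as single-end reads of 50 bases. The authors aligned them with STAR 2.5.3 to GRCh38 (the submitters' processing notes name hg19, but 99.883% of the named genes overlap their GRCh38 positions) and deposited unnormalized featureCounts counts per gene with exon lengths. The annotation release and strand setting are not given in the sources used here. Names came from GENCODE. In R 4.3.3, edgeR 4.0.16 kept 17599 genes (filterByExpr), scaled libraries by TMM and fitted a quasi-likelihood model (earlier mode, one mean per group) to all 15. Calls needed a Benjamini-Hochberg adjusted p under 0.05 with a log2 fold-change of 0.6 or more in either direction. The SE is the log2 fold-change over the root of F. DESeq2 1.42.0 was an alternative. Fits were tested on simulated counts with one spread for all genes and no differences between experiments. Only genes with many counts were changed there, so neither experiment 2 nor counts as low as those of PAPPA2 were covered. The pseudocount for ratios and correlations was 0.5 CPM.

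The 10 genes, the pathway list and the alternatives were chosen with earlier results of these data known. Beyond the 10 genes, the text names IGF1, IGF2, IGFBP1, STC1, STC2, INSR, IRS1, IRS2, any other pathway gene called in a comparison, the genes nearest to PAPPA2 and cell type markers, and NDRG1's means were singled out after its values were seen. Some pathway genes under this rule are not reported here. The series record gives replicate numbers as batches. Deviations from group means correlated at 0.27 to 0.78 between same-numbered 24-h libraries (mean 0.62, n = 9; different numbers -0.25) and at 0.18 to 0.27 at 7 days (mean 0.23, n = 3; different numbers -0.11). P-values rest on the spread within groups, shared over all groups that were fitted together. With the replicate block, they rest on the spread that remains after differences between experiments. All libraries came from one line, with 3 experiments per protocol, or fewer where libraries were left out. Counting intervals cover counting error only.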

Additional observations from a re-analysis of the deposited data

Results flagged for a closer look

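The fitted response of IGFBP6 to 1 µg/cm2 had opposite signs in the 2 protocols, the trait for which it was flagged. With all libraries it was called in neither, with or without the block, and the groups overlapped in both. After daily exposure its log2 fold-change was -0.25 (SE 0.491, adjusted p = 0.884, edgeR quasi-likelihood test). At 24 h every treated library lay above the control of its experiment (log2 ratios 0.52, 0.73 and 0.64), and after daily exposure every one lay below it (-0.10, -0.18 and -0.51). The difference of the responses, 7 days minus 24 h, was -0.91 on the log2 scale (SE 0.692), with an adjusted p of 0.853 by edgeR's quasi-likelihood test, 0.114 with the replicate block and 0.00753 without the 24-h libraries of experiment 2 (-0.85). Groups of 3 libraries are too small for a test of single outlying libraries.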

How the results depend on the processing

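Under RLE scaling, edgeR's current mode and DESeq2, the number of the 10 genes called stayed within 1.5 times in each of the 6 comparisons. At 30 µg/cm2 against control, 2 genes were called, but 1 with a filter at 1 CPM (which removes PAPPA2), 0 when only the compared libraries were fitted, 5 with the replicate block, 8 without 24-h experiment 2 and 1 to 5 with single libraries left out. At 30 against 1 µg/cm2, 2 were called, but 4 with no filter, 1 at 1 CPM, 0 with the compared libraries alone, 5 with the block, 6 without experiment 2 and 1 to 5 with single libraries left out. At 1 µg/cm2 for 24 h, 0 became 2 without experiment 2, and likewise 0 became 2 in the difference between protocols. After daily exposure 0 became 2, PAPPA and IGF1R, both with the compared libraries alone and with the block. Between controls, 5 became 3 to 4 with single libraries left out, and the block could not be fitted because the protocols are different experiments. The block changed no call at 1 µg/cm2 for 24 h or in the difference between protocols.

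Signs turned only in values that were not called. With no filter, IGF1R between controls was 0.012. Without experiment 2, IGFBP4 (-0.0075) and IGF2R (0.0905) at 1 µg/cm2 for 24 h and IGFBP2 (0.31) and IGFBP4 (0.0453) in the difference between protocols turned. With single libraries left out, IGF1R ranged from -0.32 to 0.19 and IGF2R from -0.32 to 0.30 at 1 µg/cm2 for 24 h, and IGFBP2 from -0.45 to 0.18. At 30 µg/cm2, IGF1R ranged from -0.43 to 0.0143 against control and from -0.40 to 0.10 against 1 µg/cm2, and IGFBP2 from -0.91 to 0.10 against 1 µg/cm2. Between controls, PAPPA ranged from -0.85 to 0.0058 and IGF1R from -0.24 to 0.18. In the difference between protocols, PAPPA ranged from -0.43 to 0.43, IGFBP2 from -0.35 to 0.28 and IGFBP4 from -0.45 to 0.0233, and IGFBP4 after daily exposure ranged from -0.0214 to 0.0845.

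Over all genes, calls at 30 µg/cm2 against control went from 1420 to 360 with the compared libraries alone, 2681 with the block, 3430 without experiment 2 and 794 to 2706 with single libraries left out, and against 1 µg/cm2 from 1379 to 149, 2737, 3113 and 711 to 2715. At 1 µg/cm2 for 24 h, 11 became 2 with the compared libraries alone, 38 with no filter, 39 with DESeq2, 74 with the block, 378 without experiment 2 and 4 to 45 with single libraries left out. After daily exposure, 40 became 1029 with the compared libraries alone, 92 with no filter, 251 with DESeq2, 773 with the block and 0 to 11 with single libraries left out. In the difference between protocols, 0 became 1 with the compared libraries alone, 20 with no filter, 66 with DESeq2, 181 with the block, 1766 without experiment 2 and up to 63 with single libraries left out. The causes were not tested. With 0 to 5 counts of PAPPA2 in 24-h controls and low-dose cells, depth limits its ratios.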
